A study of Arabidopsis thaliana with 116 samples.

Results

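The lines compared here were 116 recombinant inbred lines of Arabidopsis thaliana. Upper and lower lines were selected on a measured value, the level of the gene AT5G15360 in their developing seeds. A line was called upper where the probe set of AT5G15360 read above 6.57 on the log2 scale and lower where it read at or below that value. This placed all 116 of 116 lines, with 66 upper and 50 lower lines. AT5G15360 is a protein-coding gene at place 1728 of 8420 genes in the RefSeq order of chromosome 5. Distances are given as places in that order, since no coordinates of the array's genome build were used.

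After repeated selfing, each such line carries a fixed patchwork of its parents' chromosomes, here those of the accessions Col-0 and C24 crossed in both directions. A locus at which the parents differ therefore sorts the lines into groups, and genes that lie near it on the chromosome tend to be inherited together with it. A gene whose level differs between such groups is commonly called local when it lies near the locus and distant when it lies elsewhere in the genome. In an array the level of a probe set can also change because a base under its probes differs between the parents, and such a difference and a difference in transcript amount cannot be told apart from probe set values.

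Each line was represented by 1 array of RNA from seeds taken 10 to 11 days after flower opening, with 8 siliques from each of 6 plants pooled. The 59 lines whose names begin with Q and the 57 lines whose names begin with R belong to the reciprocal crosses, and the labels used here do not say which letter stands for which direction. No line had a treatment, and the parents were not analysed here. Array medians lay between 5.84 and 5.99 on the log2 scale, and precision is limited by there being 116 arrays. Since a line has 1 array, p-values measure the spread between lines. Most measured genes of seed storage and oil bodies were among the brightest of the lists examined. The cupin AT2G18540 and the oleosin AT2G25890 were dimmer, at 5.42 and 10.01 on average. The endosperm markers AGL62 and IKU2 read 3.24 and 4.35 on average. In whole seeds, fewer cells of a type and less RNA per cell cannot be told apart.

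The levels of AT5G15360 fell into 2 bands with nothing between them. Upper lines read between 7.54 and 8.47 with a median of 7.91, and lower lines between 4.62 and 5.97 with a median of 5.20. The highest lower line and the lowest upper line, which flank the cutoff, were 1.57 log2 apart. The group means were 7.92 ± 0.206 (SD, n = 66) and 5.21 ± 0.325 (SD, n = 50), a 6.53-fold difference in signal. These values chose the groups and are a description only.

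Both letters contained both bands, in unequal shares. Of the Q lines 28 were upper and 31 lower, and of the R lines 38 were upper and 19 lower, so that 47.5% of Q lines and 66.7% of R lines were upper (Fisher's exact test, two-sided, p = 0.0412). The letter was a covariate in the fit reported, and fits without it or within 1 letter were alternatives. Within upper lines the median was 7.94 in Q and 7.85 in R lines, and within lower lines it was 5.19 and 5.21.

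All 22745 other probe sets were compared between upper and lower lines with limma, and a probe set is called where its Benjamini-Hochberg adjusted p was under 0.05. There were 1040 calls, 4.57% of those tested, of which 464 were higher and 576 lower in upper lines. The share was uneven along the genome. Linked probe sets, taken as those of chromosome 5 genes within 1600 places of AT5G15360 in the gene order, held 273 calls among 1221 tested, or 22.4%. The remainder of chromosome 5 held 89 calls among 1786, or 4.98%, and chromosomes 1 to 4 held calls in 1.84% of 10359. On chromosomes 1 to 4, 1037 probe sets had an unadjusted p under 0.05 (limma). The adjustment was made over all probe sets at once, so it does not hold the share of false calls to 0.05 within each region. A further 485 calls, 5.22% of 9292, were probe sets with no gene, several genes or no place in the order, and these are not named. Their largest absolute difference was 3.40 log2, and whether any of them lie in the linked window was not determined.

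**Figure D1:**
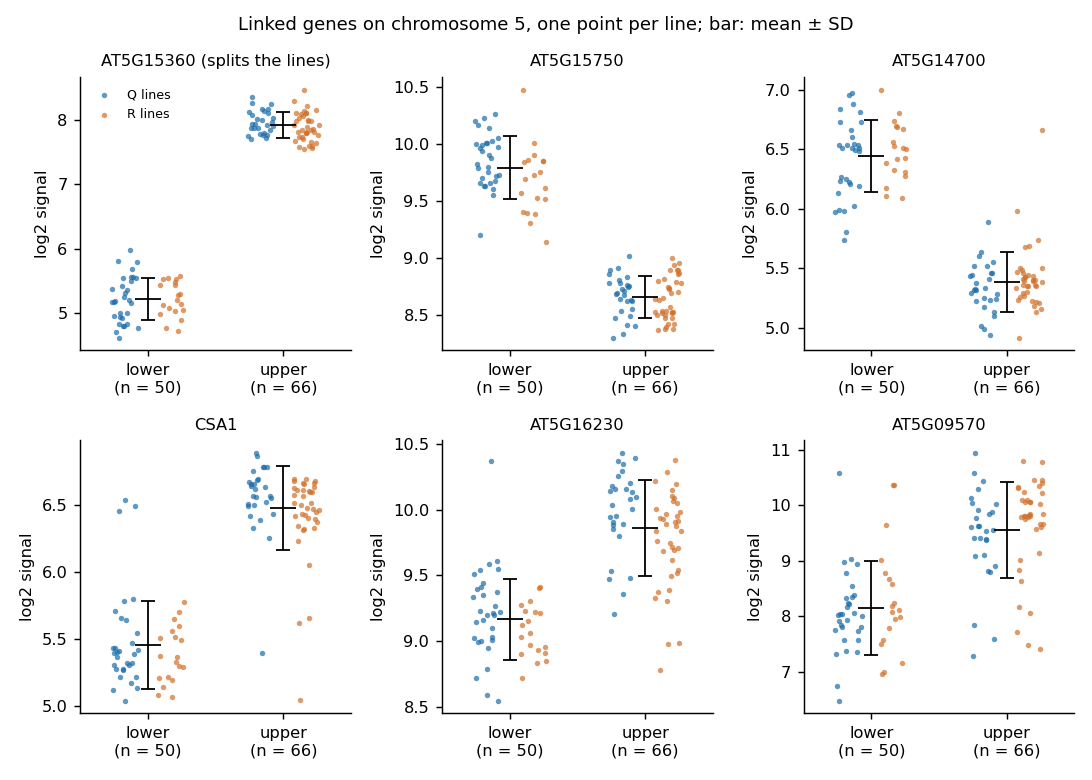
Log2 signal of AT5G15360 and of 5 linked genes in each line, lower lines on the left and upper lines on the right of each panel, Q lines blue and R lines orange, with the mean and SD in black. AT5G15750 is the gene in which no lower line reached the upper lines, whereas in CSA1 a few lines of each group sit in the band of the other.

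Among linked genes, the clearest differences after AT5G15360 itself were in AT5G15750, AT5G14700, AT5G15980, AT5G16980 and CSA1. In each of these the split accounted for most of the variance left after the letter. Shares of variance accounted for by the split are given in this sense throughout. The sign differed from gene to gene: 110 of the 273 called linked probe sets were higher and the remainder lower in upper lines. Of the 273 called, the median absolute difference was 0.22 log2, against 0.04 for all 1221 linked probe sets, and the split accounted for a median of 17.6% of the variance of those called.

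AT5G15750, 49 places beyond AT5G15360, was lower in upper lines. Its levels ran from 8.31 to 9.02 with a median of 8.67 in upper lines, and from 9.14 to 10.48 with a median of 9.80 in lower lines. The groups did not overlap, and of the 22745 probe sets tested 1 had groups that did not overlap. The difference was -1.12 ± 0.042 (SE) log2 (limma, adjusted p = 2.24e-46), and the split accounted for 85.7% of its variance. The difference was -1.19 within Q lines and -1.03 within R lines.

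AT5G14700, 84 places before AT5G15360, was also lower in upper lines. It read from 4.91 to 6.66 with a median of 5.36 in upper lines and from 5.73 to 7.0 with a median of 6.50 in lower lines. The ranges overlapped, but 2 upper and 2 lower lines alone lay past the midpoint of the group means. The difference was -1.08 ± 0.052 log2 (limma, adjusted p = 6.84e-37).

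AT5G16980, on the same side as AT5G15750 but farther out and of the zinc-binding dehydrogenase family, read from 3.27 to 4.62 with a median of 3.47 in upper lines. In lower lines it ran from 3.34 to 5.48 with a median of 4.48. Upper lines thus sat near the dim end of the array, where RMA compresses differences, and 3 lines of each group lay past the midpoint. The difference was -1.05 ± 0.059 log2 (limma, adjusted p = 1.79e-31). AT5G15980, 82 places beyond, differed by -0.82 ± 0.044 log2, with medians of 4.80 and 5.59.

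CSA1 (AT5G17880) encodes an immune receptor of the TIR-NBS-LRR class, a family that recognises pathogens or their effects inside the cell. It lies 317 places beyond AT5G15360 and was higher in upper lines. Its levels were 5.05 to 6.89 with a median of 6.55 in upper lines and 5.04 to 6.54 with a median of 5.38 in lower lines. Most lines kept to their band, with 4 upper and 3 lower lines past the midpoint. The difference was 1.04 ± 0.060 log2, a 2.06-fold change (limma, adjusted p = 8.21e-31), and it was 1.06 within Q and 1.03 within R lines.

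AT5G16230 belongs to the acyl-ACP desaturases, plastid enzymes that place a double bond in a fatty acid while it is being made. It lies 112 places beyond and was among the bright genes of the linked set. Upper lines ranged from 8.78 to 10.43 with a median of 9.92, and lower lines from 8.55 to 10.37 with a median of 9.18. The groups overlapped over most of their range, with 12 upper and 5 lower lines past the midpoint of the group means. The mean difference was 0.73 ± 0.062 log2 (limma, adjusted p = 2.72e-18).

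Other linked genes that were higher in upper lines included AT5G20700 (0.95), AT5G11570, of a family of nitrate and peptide transporters (0.78), AT5G22840 (0.66) and AT5G11930, of the glutaredoxins (0.59). Smaller positive differences were found for AT5G15520, AT5G18610, AT5G14790, AT5G18340, AT5G17210 and AT5G13090, from 0.23 to 0.35. AT5G18610 is known as PBL27, a cytoplasmic kinase that acts downstream of receptors for chitin. The 12 genes named for being higher differed by 0.23 to 1.04 log2, and the split accounted for 39% to 72.6% of the variance of each.

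Linked genes that were lower included THO7 (-0.50), a subunit of the THO complex, which couples transcription with export of mRNA. AT5G21070 differed by -0.80, AT5G11970 by -0.69, AT5G11960 by -0.58, AT5G10620 by -0.49, AT5G17570 by -0.44, AT5G17190 by -0.33 and AT5G15880 by -0.28. AT5G17190 was bright, with medians of 10.90 and 11.22 in upper and lower lines, and AT5G15880 was of middle brightness at 7.36 and 7.66. For the 12 genes named for being lower, the split accounted for 51.7% to 85.7% of the variance. Every one of the 24 linked genes had the same sign in Q and in R lines, and each was called in every alternative in which it was tested. These genes were chosen by their p over the same lines, so this is not a separate test. All 273 linked calls had the same sign within Q and within R lines, and they too were made over these same lines. Among the alternatives, the omission of lines near the cutoff left out 0 lines, so here and below it repeats the reported fit.

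A further 3 linked genes were chosen after their values were seen. AT5G09570, 680 places before AT5G15360, had the largest difference of the probe sets placed in the linked window, 1.36 ± 0.161 log2 (limma, adjusted p = 3.13e-11). Its medians were 9.80 in upper and 8.04 in lower lines, but both groups were wide, from 7.29 to 10.95 and from 6.48 to 10.58. The split accounted for 38.1% of its variance, less than for AT5G15750.

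SAG101, 59 places before AT5G15360, encodes a lipase-like partner of EDS1 in immune signalling. It was dim and higher in upper lines, with medians of 4.07 and 3.82 and a difference of 0.23 ± 0.028 log2 (limma, adjusted p = 3.96e-11). CHR23, 514 places beyond, encodes a chromatin remodeller of the SWI2/SNF2 type, and was lower in upper lines by a difference of -0.49 ± 0.050 log2 (limma, adjusted p = 3.63e-14).

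Most of the nearest genes did not pass the test, in a share much like that of the whole linked window. Of the 20 nearest genes with a named probe set, 10 on each side and all within 32 places, 4 were called, and the 16 others differed by between -0.28 and 0.06. The 3 called genes that were lower in upper lines were AT5G15280 (-0.22 ± 0.026 log2), which encodes a pentatricopeptide repeat protein, AT5G15510 (-0.23) and AT5G15190 (-0.17). The 1 that was higher was AT5G15520, a gene of ribosomal protein S19. It read 7.83 to 8.62 in upper and 7.33 to 8.37 in lower lines, and differed by 0.35 ± 0.031 log2 (limma, adjusted p = 5.02e-17).

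The nearest of these genes, AT5G15340, 2 places away, had a median of 4.23 in both groups. AT5G15200, of ribosomal protein S9, was the brightest of the 20 and had medians of 11.78 and 11.76. Of the 4 called neighbours, AT5G15280 and AT5G15520 were called in every alternative. AT5G15190 and AT5G15510 lost their call, among others, with 10 principal components and with flanking loci as covariates.

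**Figure D2:**
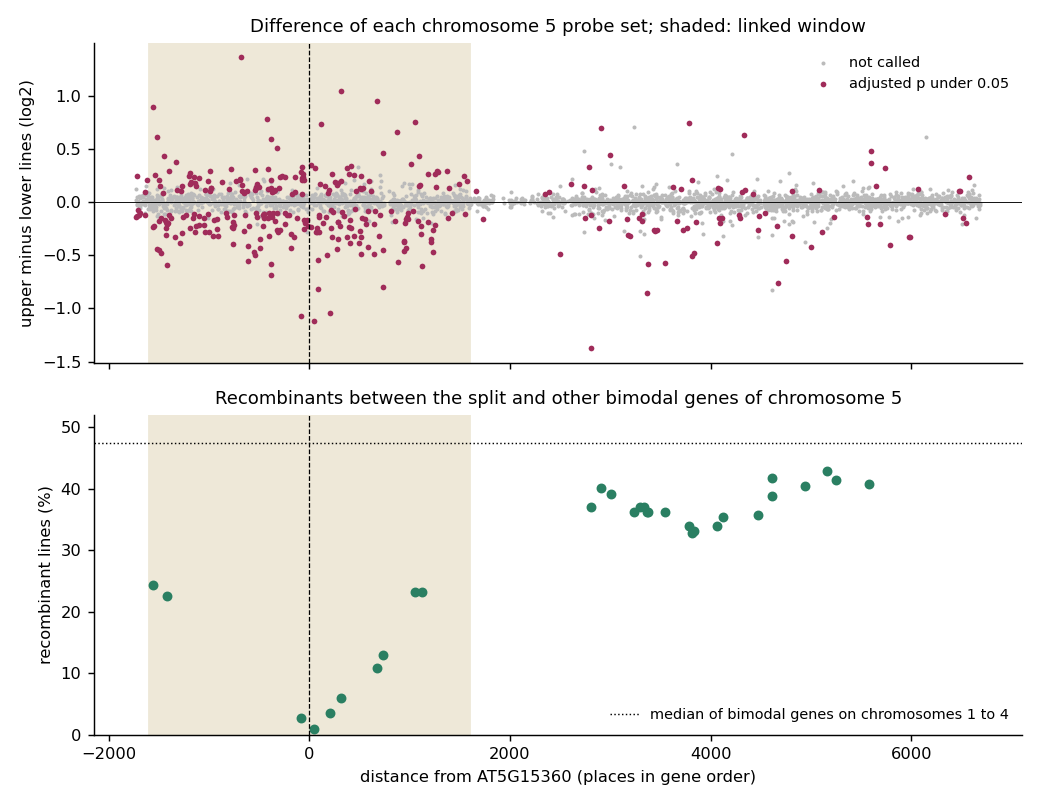
Upper panel: difference between upper and lower lines (log2) of each tested probe set of chromosome 5 against its distance from AT5G15360 in places of the gene order, called probe sets in colour and the linked window shaded. Lower panel: share of recombinant lines between the split and each bimodal gene of chromosome 5, with a dotted line at the median for chromosomes 1 to 4, 47.4%.

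Within the linked window the share of called probe sets was higher near AT5G15360 than at its far edges. It was 26.7% from 0 to 200 places beyond AT5G15360, 25.0% from 201 to 400, 22.4% from 401 to 800, 18.4% from 801 to 1200 and 11.6% from 1201 to 1600. It was 3.08% from 1601 to 2400 places, and beyond that 6.32% up to 3200 places, 6.38% up to 4000, 4.95% up to 5000, 3.51% up to 6000 and 2.73% up to 7000. On the other side it was 26.2% under 200 places before AT5G15360, 29.1% from 200 to 399 before, 27.9% from 400 to 799 and 24.6% from 800 to 1199. From 1200 to 1599 places before it was still 19.4%, and it was 19.6% in the last stretch before the chromosome end. Strong effects were closer in: all 19 linked probe sets with at least 50% of their variance on the split lay within 800 places, and 8 of them within 200.

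Genes whose levels form 2 bands allow lines to be counted in which the band of the gene and the band of AT5G15360 were not in their usual combination. The usual combination was taken as the more frequent for each gene, so the share of such lines cannot exceed 50%. Such lines are recombinant between both genes if each band marks a parent. No band was assigned to a parent here. Between AT5G15360 and AT5G15750 there was 1 such line, 0.877% of the lines that could be assigned. In AT5G15750 upper lines read at most 9.02 and lower lines at least 9.14, so the groups did not overlap. This 1 assignment depended on where the bands were divided and need not mark a recombinant line. The share was 2.73% for AT5G14700, 3.51% for AT5G16980, 6.03% for CSA1, 10.8% for AT5G20700 and 12.9% for AT5G21070. Farther out it reached 23.3% for AT5G24240 and AT5G24760, and 22.6% and 24.3% for AT5G03420 and AT5G02230 on the far side.

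Of the bimodal genes 10 were linked, with a median of 11.9% recombinant lines. The 21 on the remainder of chromosome 5 ranged from 32.8% to 42.9% with a median of 37.1%, and the 92 on chromosomes 1 to 4 from 39.3% to 50% with a median of 47.4%. The remainder of chromosome 5 thus lay between the linked genes and the other chromosomes in its median. Counted within 800 places, 26% of 626 linked probe sets were called, and within 400 places 88 of 330, or 26.7%.

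Beyond the linked window, 33 of the 89 called probe sets of chromosome 5 were higher and 56 lower in upper lines. The 5 genes named, which had the smallest p, were all lower. AT5G47330, 4069 places beyond, read 8.25 to 9.97 with a median of 9.09 in upper lines and 8.57 to 10.26 with a median of 9.45 in lower lines. Its groups overlapped over most of their range, and its difference was -0.39 ± 0.071 log2 (limma, adjusted p = 2.72e-05). It was the 1 gene of the 5 that was called in every alternative.

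AT5G38710 encodes a proline dehydrogenase, which breaks down proline in mitochondria, and differed by -0.25 ± 0.045 log2. AT5G62350 differed by -0.33, AT5G55360 by -0.28 and AT5G01030 by -0.14. The last lies 1722 places before AT5G15360, just outside the window. Each of these lost its call with 10 principal components as covariates. The bimodal AT5G38180, 2807 places beyond, had the largest difference here, -1.37 ± 0.418 log2 (limma, adjusted p = 0.0336), with medians of 4.96 and 9.18. It was called in 6 alternatives and had the opposite sign, 0.86, in the fit with 10 principal components (adjusted p = 0.199).

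**Figure D3:**
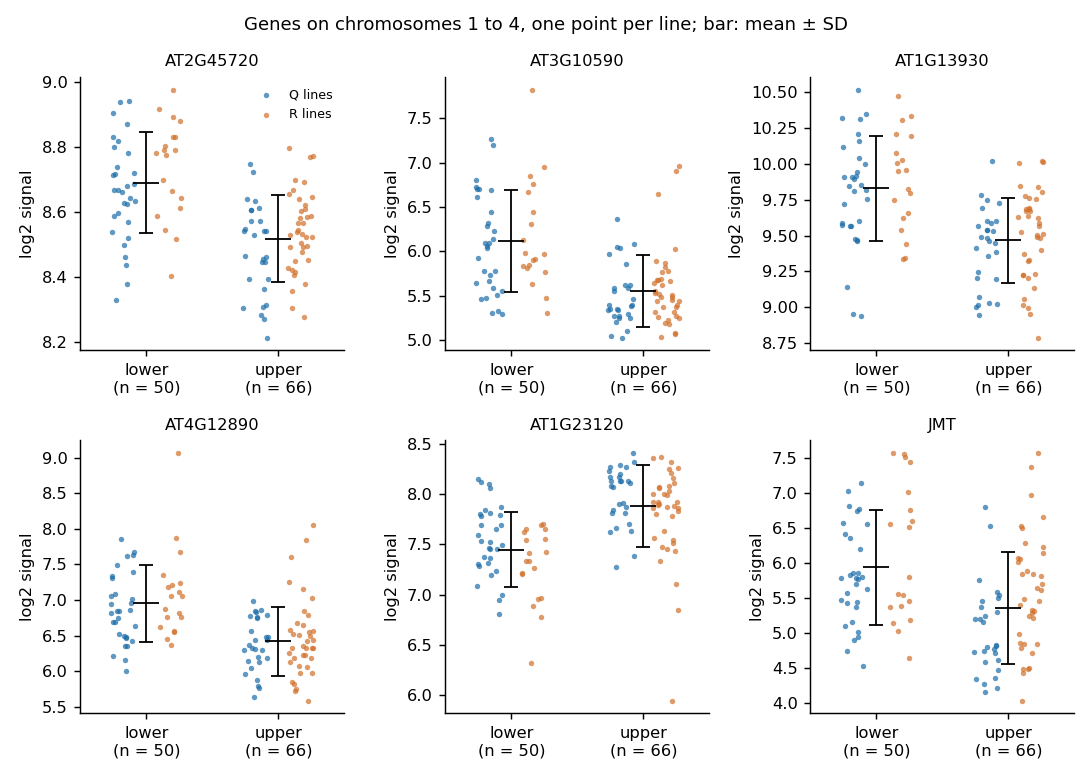
Log2 signal of 6 genes of chromosomes 1 to 4 in each line, lower lines on the left and upper lines on the right of each panel, Q lines blue and R lines orange, with the mean and SD in black. In all 6 genes the groups overlap over most of their range.

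On chromosomes 1 to 4 the differences were small. Of the called probe sets 91 were higher and 100 lower in upper lines, with a median absolute difference of 0.16 log2 against 0.02 for all those tested. This balance changed with the fit: 9 were higher and 25 lower with flanking loci as covariates, 182 and 131 with other loci, and 146 of 259 were higher with array weights. The calls were spread over the chromosomes, with 66 on chromosome 1 (1.91% of those tested), 35 on chromosome 2 (1.59%), 54 on chromosome 3 (1.97%) and 36 on chromosome 4 (1.83%). All 24 genes named from these chromosomes had the same sign in Q and R lines, and in all 24 the groups overlapped. They were chosen by their p over the same lines. Every reported call on these chromosomes likewise kept its sign within Q and within R lines. These calls too were made over the same lines, so this is not a separate test.

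The smallest p belonged to AT2G45720, which was bright and varied little. It read 8.21 to 8.80 with a median of 8.53 in upper lines and 8.33 to 8.98 with a median of 8.68 in lower lines. The difference was -0.19 ± 0.027 log2 (limma, adjusted p = 7.0e-08). AT3G10590 had a wider contrast, with medians of 5.46 and 6.01 and a difference of -0.58 ± 0.091 log2 (adjusted p = 6.35e-07). Both lost their call with 10 principal components as covariates, and kept it in the 12 other alternatives. These include the omission of lines near the cutoff, which left out 0 lines.

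AT1G13930 and AT4G12890 were the 2 of the 24 that were called in every alternative. AT1G13930 read 8.79 to 10.02 with a median of 9.51 in upper lines and 8.94 to 10.52 with a median of 9.85 in lower lines. It differed by -0.38 ± 0.062 log2 (limma, adjusted p = 1.46e-06), by -0.38 within Q lines and by -0.39 within R lines. AT4G12890 read 5.58 to 8.05 in upper and 6.0 to 9.07 in lower lines, with medians of 6.34 and 6.86, and differed by -0.56 ± 0.096 log2 (adjusted p = 7.34e-06).

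Other genes lower in upper lines were RTE1 (-0.14), which acts on the ethylene receptor ETR1, and AT1G56220 (-0.15), of the dormancy- and auxin-associated family. AT3G22540 differed by -0.50, AT3G14760 by -0.36, AT3G10190 by -0.28, AT2G34315 by -0.22, AT4G32870 by -0.20 and AT1G31850 by -0.18. AT3G14760 was bright, with medians of 10.64 and 10.95. JMT, which was chosen after its values were seen, encodes the methyltransferase that makes methyl jasmonate. It had the largest difference of any called probe set on chromosomes 1 to 4, -0.67 ± 0.147 log2 (limma, adjusted p = 0.000833), on ranges of 4.03 to 7.57 and 4.53 to 7.58. Its call was lost in 3 of 13 alternatives, with flanking loci, with the 3' minus 5' signal that includes actin and in R lines alone.

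AT1G23120 led the genes that were higher in upper lines. It read 5.95 to 8.41 with a median of 7.92 in upper lines and 6.32 to 8.14 with a median of 7.46 in lower lines. The difference was 0.47 ± 0.072 log2 (limma, adjusted p = 2.07e-07), and 15 upper and 14 lower lines lay past the midpoint. AT2G39110, a receptor-like cytoplasmic kinase gene, differed by 0.55 ± 0.106 log2 on medians of 6.76 and 6.31. Both lost their call with 10 principal components or the 3' minus 5' signal of the controls as covariates, and kept it where actin was left out of that signal.

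The other genes named for being higher were AT3G62040 (0.31), AT4G34600 (0.31), AT1G54200 (0.20), AT3G16850 (0.18), AT2G36930 (0.18), AT3G26730 (0.15), LCR (0.14), AT3G56480 (0.12), AT4G37295 (0.12) and AT3G15640 (0.11). LCR encodes an F-box protein of leaf shape and shoot meristem upkeep, and AT3G15640 a subunit of cytochrome c oxidase. AT4G33150, the gene of the enzyme that begins lysine breakdown, was chosen after its values were seen and was higher by 0.21 ± 0.049 log2 (limma, adjusted p = 0.00268). It was called in 9 of 13 alternatives. None of the 12 genes named for being higher was called in every alternative.

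These distant calls depended on the covariates more than the linked ones did. With AT5G03420 and AT5G38180, genes on either side of AT5G15360, as covariates, 34 probe sets of chromosomes 1 to 4 were called, 27 of them among the calls reported. With 10 principal components 166 were called, and 19 of them were among the calls reported. Among the 273 linked calls, 141 were still called with the flanking genes and 115 with the principal components. The direction on chromosomes 1 to 4 was the same for every reported call with the flanking genes and for 167 with the principal components. The components were drawn from all tested probe sets, linked ones included, and both flanking genes also differed between the groups. The split accounted for a median of 17.6% of the variance of linked calls and 10.1% of that of calls on chromosomes 1 to 4. The part of these in the lost calls was not tested.

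**Figure D4:**
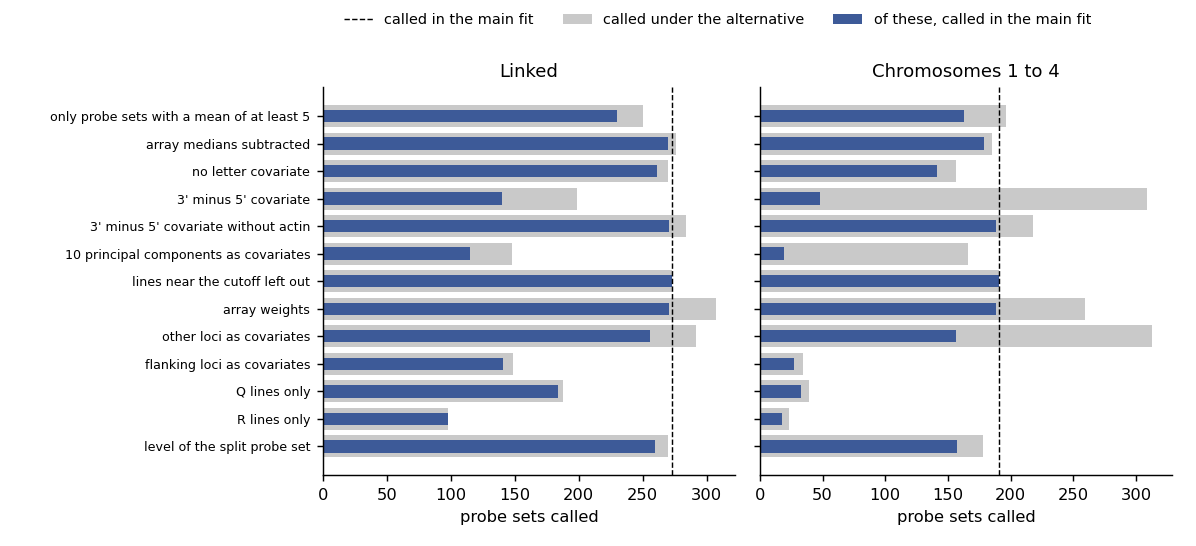
Number of probe sets called under each alternative (grey) and how many of these were among the calls reported (blue), for linked probe sets and for chromosomes 1 to 4; the dashed lines mark the reported counts, 273 for the linked probe sets. The blue part on the right is shortest for R lines alone (18), 10 principal components (19) and flanking loci (27). It is also short for Q lines alone (33) and the 3' minus 5' signal that includes actin (48).

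For 13 bimodal genes that mark loci on chromosomes 1 to 4, differences lay between -0.57 and 0.49 log2, 0 were called by limma and 0 had an unadjusted p under 0.05. These genes vary widely between lines, as with AT1G23960 at -0.57 ± 0.365 (SE) log2. Adding their levels as covariates raised the calls on chromosomes 1 to 4 to 313, of which 156 were among the calls reported.

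Transcripts of the organelles were measured by 69 plastid and 18 mitochondrial probe sets. Over all 22745 probe sets, 4.57% were called and 3312 had an unadjusted p under 0.05. No plastid probe set was called (0% of 69, limma), and 2 had an unadjusted p under 0.05. Of the mitochondrial probe sets 2 were called, or 11.1%, and 6 had an unadjusted p under 0.05. Both called genes encode subunits of complex I of the respiratory chain. The level of nad9 was 4.93 to 6.41 with a median of 5.68 in upper lines and 5.46 to 6.70 with a median of 5.89 in lower lines, a difference of -0.30 ± 0.062 log2 (adjusted p = 0.000361). It was called in 9 of 13 alternatives, and lost its call with flanking loci, 10 principal components, the 3' minus 5' signal that includes actin and R lines alone. For nad5 it was -0.11 ± 0.034 log2 (adjusted p = 0.0489), and it was called in 3 alternatives.

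Gene lists of seed filling, seed coat, defence compounds, flowering and cell division were set beside the split. Of the genes in 17 lists, 44 had a probe set with 1 gene name, in 14 lists, and 3 of the 44 were called, against 4.57% of all probe sets tested. Most genes of the lists had no such probe set and were not examined. Of 13 storage protein genes 5 were measured in this sense, and of 24 genes of fatty acid and oil synthesis 2. The median over all 22745 probe sets was 0.01 log2. Each list is small as measured, and nothing particular to a list can be read from these counts.

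LEA4-5 encodes a late embryogenesis abundant protein, one of those that accumulate as seeds prepare for drying. It lies 988 places before AT5G15360, within the linked window, and was higher in upper lines by 0.29 ± 0.075 log2 (limma, adjusted p = 0.00889). FY, 238 places before and also linked, encodes an RNA 3' end processing factor of the flowering pathway, and differed by -0.11 ± 0.030 log2 (adjusted p = 0.0193). DFR, the dihydroflavonol reductase of the anthocyanin and tannin pathway, lies 3447 places beyond and differed by -0.27 ± 0.080 log2 (adjusted p = 0.0251). Its levels were 6.93 to 9.19 in upper and 7.32 to 9.01 in lower lines. DFR was called in 7 of 13 alternatives, and LEA4-5 and FY in 8 each. All 3 lost their call with 10 principal components, with flanking loci, with the 3' minus 5' signal that includes actin and within either letter alone. Of the other 2 measured seed coat genes, BAN, which acts in tannin synthesis, differed by -0.04 and AT3G50990 by -0.20, and neither was called.

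The other 5 measured late embryogenesis genes differed by between -0.03 and 0.09. The 5 measured storage protein genes differed by 0.03 to 0.12, and their median was 0.05. None was called by limma, and 3 had an unadjusted p under 0.05. AT2G28490, a cupin, had the smallest p, with medians of 13.14 and 13.10, a difference of 0.05 ± 0.015 log2 and an adjusted p of 0.0597. The 4 oil body genes differed by 0.01 to 0.04 with a median of 0.04, among them OLEO3 with medians of 13.30 and 13.21, and 0 of them had an unadjusted p under 0.05.

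Among 6 glucosinolate genes, which serve the sulphur-containing defence compounds of this family, differences lay between -0.04 and 0.15 around a median of 0.06, with UGT74B1 at 0.11 (adjusted p = 0.451). The 3 cell division genes differed by -0.12 to -0.04 with a median of -0.11, among them AUR1, an Aurora kinase, at -0.12 (adjusted p = 0.415). The 2 small heat shock genes, the 3 of nuclear photosynthesis including PORB, the 2 of fatty acid synthesis including FATB and the 2 maturation regulators including EEL contained no call by limma and 0 with an unadjusted p under 0.05. The same was true of 2 sugar transporters including SWEET11, 2 endosperm markers including AGL62 and 2 pollen markers including AGL104. The pollen markers AGL66 and AGL104 read 3.60 and 3.83 on average. The silique wall, root, and gibberellin and abscisic acid lists had no measured gene.

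Whether the difference was of the same size in Q and R lines was tested with the product of split and letter. No probe set of 22745 was called (0%, limma), 844 had an unadjusted p under 0.05, or 3.71%, and the smallest adjusted p was 0.333. Of genes with 1 name, the smallest p was that of AT5G07630, 872 places before AT5G15360, which differed by 0.31 in Q and 0.04 in R lines (p = 0.000167, adjusted p = 0.999). AT4G08600, AT1G02190, AT2G07020 and AT3G12590 followed, with overall differences between -0.03 and 0.01 log2. A p that misses the threshold does not show that Q and R lines responded alike.

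Sample quality was compared between upper and lower lines with permutation tests. The first principal component (12.8% of the variance) had means of 1.65 and -2.18 in upper and lower lines (two-sided permutation test, p = 0.134, adjusted p = 0.201). Array medians were 5.91 in both (permutation test, p = 0.852), but RMA sets arrays to a common distribution, so they could hardly differ. The mean 3' minus 5' signal of the array's control genes, commonly used as a measure of RNA integrity, was 0.579 ± 0.317 (SD) in upper and 1.07 ± 0.254 in lower lines (p = 2e-05, the smallest these permutations can give, adjusted p = 6e-05). Of its 3 control genes, actin carried the difference. Without actin the values were 0.565 ± 0.161 and 0.587 ± 0.174, a difference of -0.02. The bright actin 3' control read 9.39 to 12.79 with a median of 9.88 in upper lines and 9.85 to 12.78 with a median of 12.48 in lower lines. Its lines formed separate bands, so that most upper lines lay in the dim band and most lower lines in the bright one. The part of this control in the results with the 3' minus 5' signal as a covariate was measured by leaving actin out, with which the calls on chromosomes 1 to 4 came to 2.1% and those among linked probe sets to 23.3%.

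**Figure D5:**
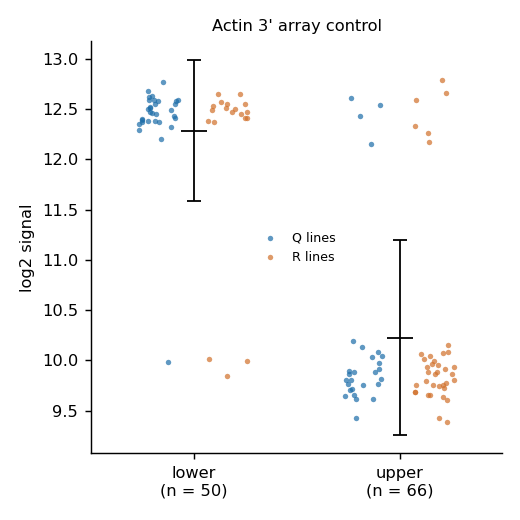
Log2 signal of the actin 3' control probe set in each line, lower lines on the left and upper lines on the right, Q lines blue and R lines orange, with the mean and SD in black. Lines fall in bands near 9.84 and 12.48, and 14 of the 116 lines are in the band of the other group.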

How the data were processed

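RNA from seeds of 116 lines was hybridised to 1 Affymetrix array each. The authors deposited log2 signals per probe set. RMA is the tool named in the submitters' processing notes. It sets arrays to a common distribution, so differences in total RNA are removed, and it compresses dim levels. No RMA version, genome build or scan date was found in the labels. Of 22810 probe sets, 64 controls and the probe set of AT5G15360 were left out of the tests. Probe sets were named through the platform annotation and RefSeq (TAIR10.1). The latter gave names and gene order for 13366 tested probe sets with 1 placed gene, and no coordinates were used; 503 had several genes and 8730 none.

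Groups, cutoff, gene lists and members were chosen with earlier results of these data known. Differences were fitted by lmFit and eBayes of limma 3.58.1 (R 4.3.3) on all lines with the letter as covariate. They were adjusted by Benjamini-Hochberg over 22745 probe sets. The fit was also run on simulated data, where 19 of 50 changes of 0.1 log2 and 44 of 50 of 0.2 were called. The simulated noise was independent between probe sets, so it lacks the correlation between linked genes. Quality values used 100000 permutations, two-sided, adjusted over the 3 values. Genes were named as the 10 nearest on each side, the 12 smallest p in each direction among linked genes and on chromosomes 1 to 4, the 5 smallest beyond the window and for the interaction, called organelle genes, and per list the called members or the smallest p. Bimodal genes came from a mixture of normal components (BIC gain of at least 10, modes 4 SD and 1 log2 apart or more, smaller share 0.2 or more), and recombinant counts omitted lines whose posterior fell from 0.1 to 0.9. Alternatives were a mean of at least 5 log2, subtracted array medians, no letter, control signal with and without actin, 10 principal components, omission of lines within 0.3 of the cutoff, array weights, other and flanking loci, 1 letter alone, the level of AT5G15360 itself and other windows. The control signal without actin was added after the data were seen. Summaries and plots were made in Python 3.11.15 (numpy 2.4.6; pandas 2.3.3; scipy 1.17.1; matplotlib 3.10.9). No probe, promoter or transcript sequence was used here.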

Additional observations from a re-analysis of the deposited data

Results flagged for a closer look

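The array's actin 3' control probe set, which no comparison above used as a gene, differed between upper and lower lines by -2.06 log2, with means of 10.2 ± 0.966 (SD) and 12.3 ± 0.702. A second, older actin 3' control differed by -0.74. The 10 control probe sets of GAPDH and ubiquitin that were compared differed by between -0.01 and 0.06. The 5' probe sets of actin differed by 0.05 and 0.03, and its middle probe sets by -0.15 and 0.02. Lines of the bright control formed bands near 9.84 and 12.48, and 14 of 116 lines, or 12.1%, were in the less usual combination with the split. Of placed genes, those whose levels over the 116 lines were most like it were AT5G09570 (r = -0.85), AT5G10620 (0.84), AT5G11570 (-0.82), AT5G10130 (0.78) and AT5G08560 (0.77), from 422 to 754 places before AT5G15360, all measured on the same arrays. The actin gene ACT7 lies 650 places before AT5G15360, and the files used here do not say which actin gene the control targets. The part of a sequence difference in this control was not tested.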

How the results depend on the processing

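Linked probe sets were called in 22.4% of those tested. This was 12.1% with 10 principal components, 12.2% with flanking loci and 8.03% with R lines alone, and 26% within 800 places, 26.7% within 400 and 12% over the whole of chromosome 5. Other alternatives gave 15.4% to 30.7%. On chromosomes 1 to 4, called in 1.84%, it was 3.38% for probe sets with a mean of at least 5, 2.98% with the control signal as a covariate (48 calls shared), 3.03% with other loci, 0.328% with flanking loci, 0.376% with Q lines alone and 0.222% with R lines alone. Other alternatives gave 1.51% to 2.50%. Single letters have fewer lines, and windows and the filter change which probe sets are counted; for the covariates the cause was not tested. With actin left out of the control signal the shares were 23.3% and 2.1%, with 188 calls shared on chromosomes 1 to 4. The difference of AT5G38180 changed sign with 10 principal components (0.86). AT5G09570 lost its call with the control signal that includes actin (0.37, adjusted p = 0.141 by limma). Genes used as covariates had no value in those fits. No line lay within 0.3 of the cutoff, so the omission of such lines repeats the reported fit. It is included in the counts of alternatives. No paired analysis was possible because each line has 1 array and the labels give no link between a Q and an R line of the same number. Signals near the dim end, such as those of AT5G16980 and SAG101, limit what can be read from small differences.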
